A study of Mus musculus with 15 samples.

Results

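AM580, a synthetic agonist selective for the retinoic acid receptor RARα, was compared with its vehicle DMSO (dimethyl sulfoxide) by RNA sequencing of 266-6 cells, a line from a mouse pancreatic acinar cell tumour. The comparison rests on 6 of the 15 libraries of the series: the 3 libraries labelled AM580 and the 3 labelled DMSO, chosen by their treatment labels and not by any measured value. All 16736 genes that passed a filter on low read counts were tested, of 43432 genes in the deposited table. The other 9 libraries come from the same line, 3 each with CD3254 (an agonist of the retinoid X receptor, RXR), with AM580 and CD3254 together, and with 9-cis retinoic acid, a ligand of both receptor families. Cells of every group, the vehicle group included, spent 24 h in stripped medium before 24 h with ligand or vehicle. The labels state no genotype beyond the line, no ligand concentration and no source of the replicates, so a p-value here measures the spread between these libraries, which may be technical. The line is a single tumour-derived culture, and RNA from a bulk culture cannot tell fewer cells of a type from less RNA per cell.

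Retinoic acid receptors are ligand-activated transcription factors that bind DNA as heterodimers with an RXR. Without ligand the pair recruits corepressors to its response elements. An agonist exchanges these for coactivators, and typical targets include genes that limit retinoic acid itself, such as the Cyp26 hydroxylases that degrade it, Dhrs3 that diverts its precursor retinaldehyde back to retinol, and Rarb, which encodes the receptor RARβ. In the pancreas retinoic acid is known for its part in early patterning and in the differentiation of acinar and endocrine cells.

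The 6 libraries held between 32939254 and 44972993 reads assigned to genes, and the levels below are CPM, counts relative to library size after TMM scaling between libraries. Replicate 1 of AM580 and replicate 1 of DMSO stood apart from replicates 2 and 3 of both groups on the first principal component of all 15 libraries, at -90.0 and -66.7 against 25.3 to 40.2 for the 10 libraries on the other side. The component carried 48.3% of the variance. The summed level of 26 genes known to be induced by low oxygen was 14319 CPM in DMSO replicate 1 and 21140 CPM in AM580 replicate 1, and lay between 2450 and 2755 CPM in the other 4 libraries. The labels name no such state or batch. The low side of the component held 1 library of each treatment. These 5 libraries are called set A and the other 10 set B, and the set entered the test as a term. Set A holds 1 library of each treatment, which leaves its own library-to-library spread unmeasured.

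The cells expressed acinar genes. The chymotrypsinogen gene Ctrb1 stood between 4426 and 7201 CPM and the transcription factor gene Rbpjl averaged 244 ± 123 CPM in DMSO (SD, n = 3). Other acinar products were near 0: Cpb1, Ctrc, Klk1, Amy2a5 and Reg2 had at most 9 reads in any of the 6 libraries. The islet hormone genes Ins1, Ins2, Gcg and Sst had 0 reads in all 6, but other endocrine genes were expressed. Summed over 21 endocrine markers the level was 430 to 520 CPM with DMSO and 510 to 591 CPM with AM580. The leukocyte gene Ptprc had at most 5 reads in any of the 6 libraries. Summed over 9 immune markers the level was 8.82 to 49.2 CPM with DMSO and 7.27 to 64.4 CPM with AM580, both upper values being the replicate 1 library, in which the antigen presentation gene Cd74 supplied 33.9 and 39.6 CPM. Summed over 13 fibroblast and stellate markers it was 329 to 369 CPM with DMSO and 304 to 410 CPM with AM580, although the collagen gene Col3a1 had at most 8 reads. Thus the endocrine, immune and fibroblast sums overlapped between the groups compared. The 20 ductal and progenitor markers summed to 392, 530 and 538 CPM with DMSO and to 512, 607 and 582 CPM with AM580. Their ranges overlapped too, but AM580 was above DMSO within each set.

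The comparison of AM580 with DMSO asked which transcripts the RARα agonist alone altered. At a Benjamini-Hochberg adjusted p (FDR) under 0.05 in edgeR's quasi-likelihood test, 5 of the 16736 genes rose (0.0299%) and 0 fell (0%). The 5 were Dhrs3, Cyp26b1, Fmo5, Enpp1 and Cd38. At an unadjusted p under 0.05 there were 704 genes (4.21%), 350 of them higher (2.09%) and 354 lower (2.12%), and DESeq2 with the same terms passed 17 genes, 13 higher and 4 lower. A gene is said below to have passed where edgeR's test with the set term called it, and genes that DESeq2 with the set term called as well are named beside their lists. The median half-width of the 95% interval of a log2 change, not adjusted for the number of genes, was 0.47, which is a 1.39-fold change. Smaller responses were mostly not detectable with these libraries, and larger ones could also miss the FDR threshold. Adh1 did so at a log2 value of 0.95 (edgeR FDR = 0.0936) and Rarb at 2.56 (edgeR FDR = 0.105).

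Cyp26b1 (ENSMUSG00000063415, chr6:84571414-84593908, protein-coding) encodes a cytochrome P450 that hydroxylates and so inactivates retinoic acid. Its level was 0.659, 0.211 and 0.0503 CPM in DMSO replicates 1, 2 and 3, from 26, 7 and 2 reads, and 6.90, 2.16 and 2.45 CPM in AM580 replicates 1, 2 and 3, from 235, 98 and 114 reads. The groups did not overlap, and in each group replicate 1 was the highest. Cyp26b1 rose by 3.73 ± 0.36 on the log2 scale (SE), a 13.3-fold change with a 95% log2 interval of 2.95 to 4.51 and an edgeR FDR of 0.000594. The other members of its family, Cyp26a1 and Cyp26c1, were not tested because they had at most 3 and 1 reads in any of the 6 libraries.

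Dhrs3 (ENSMUSG00000066026, chr4:144892827-144928209, protein-coding) encodes a short-chain dehydrogenase that reduces retinaldehyde. Its libraries read 5.24, 2.60 and 3.54 CPM with DMSO and 40.7, 14.6 and 14.7 CPM with AM580. AM580 replicate 1 was the highest of all, yet the other AM580 libraries were also far above every DMSO library. Dhrs3 rose by 2.49 ± 0.23 on the log2 scale, or 5.62-fold, with the smallest edgeR FDR of the comparison, 0.000537. The difference in log2(CPM + 0.1) was 2.93 in set A and 2.23 in set B.

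Fmo5 (ENSMUSG00000028088, chr3:97628804-97655282, protein-coding) belongs to the flavin-containing monooxygenases, which oxidise nitrogen, sulphur and carbonyl groups of many compounds. It stood at 3.37, 4.38 and 3.42 CPM with DMSO and at 8.31, 13.8 and 15.8 CPM with AM580, without overlap. Here the AM580 library of set A was the lowest of its group, the opposite of Cyp26b1 and Dhrs3. Fmo5 rose 3.26-fold (log2 change 1.71 ± 0.19, edgeR FDR = 0.00277). Of the other 3 family members tested none passed, and their log2 values lay below 0: -0.50 for Fmo4, -0.27 for Fmo1 and -0.21 for Fmo2.

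Cd38 (ENSMUSG00000029084, chr5:43868553-43912375, protein-coding) encodes a surface enzyme that hydrolyses NAD. Its DMSO libraries held 1.09, 1.3 and 0.653 CPM and its AM580 libraries 2.64, 5.14 and 6.77 CPM. The lowest AM580 library, replicate 1, was still above the highest DMSO library, and Cd38 rose 4.56-fold (log2 change 2.19 ± 0.32, edgeR FDR = 0.0262). Enpp1 (ENSMUSG00000037370, chr10:24637914-24712159, protein-coding) encodes a surface pyrophosphatase that splits extracellular nucleotides. Its DMSO libraries lay close together at 19.2, 19.4 and 20.6 CPM, and its AM580 libraries were at 33.0, 40.2 and 41.6 CPM. The groups were well apart for this gene, and Enpp1 rose 1.94-fold (log2 change 0.95 ± 0.13, edgeR FDR = 0.0171).

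Same-numbered libraries of the groups deviated together, but libraries 2 and 3 crossed did so as well. With the replicate number as a block beside the set term only Dhrs3, Cyp26b1 and Fmo5 passed, while Enpp1 had an FDR of 0.0597 and Cd38 of 0.0686. Without the set term edgeR passed 0 genes (smallest FDR 0.473, 204 genes at an unadjusted p under 0.05) and DESeq2 passed 10, and with the set term but only the 6 libraries compared edgeR passed 0 (smallest FDR 0.178). Dhrs3, Cyp26b1 and Fmo5 passed in each of the 6 fits that lacked 1 of the libraries compared. Enpp1 and Cd38 passed only without AM580 replicate 1, and their FDR reached 0.200 without DMSO replicate 3. Within set B alone, 2 libraries a group, Dhrs3, Fmo5 and Rarb passed.

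**Figure D1:**
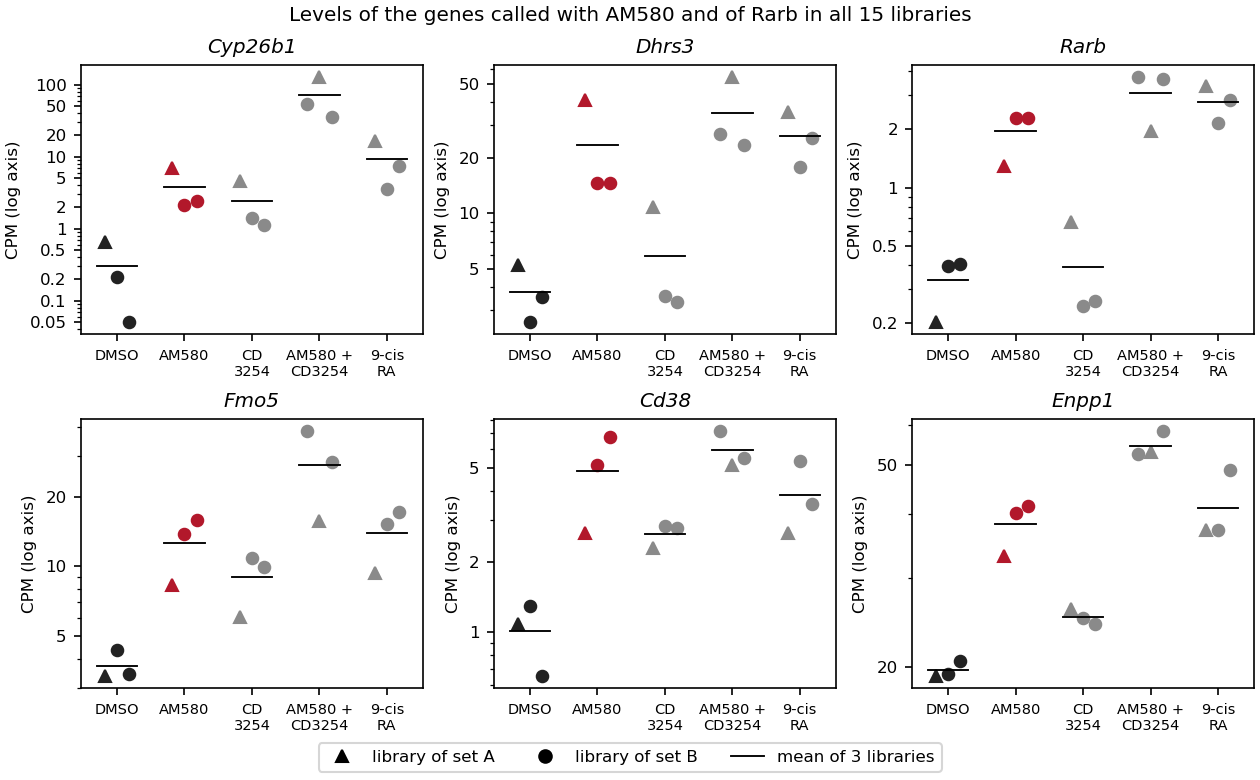
Level in CPM (log axis) of the 5 genes that passed and of Rarb in each of the 15 libraries, by treatment; triangles are the libraries of set A, circles those of set B, and bars the mean of 3 libraries. In each panel the 3 AM580 libraries lie above the 3 DMSO libraries, and for Dhrs3 the CD3254 libraries lie lower, between 3.31 and 10.8 CPM, than the AM580 libraries.

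Rarb (ENSMUSG00000017491, chr14:16430839-16819156, protein-coding) is the receptor gene best known as a direct target of ligand-bound RAR. It stood at 0.203, 0.393 and 0.402 CPM with DMSO, from 8, 13 and 16 reads, and at 1.29, 2.29 and 2.30 CPM with AM580, from 44, 104 and 107 reads. No library of the groups overlapped. The fitted log2 value was 2.56 ± 0.44, or 5.88-fold with a log2 interval of 1.61 to 3.51, but its edgeR FDR of 0.105 did not pass. With DESeq2 and the set term its adjusted p was 2.3e-05. The edgeR FDR was 0.000911 with every gene of at least 1 read over the 15 libraries tested, and 0.0439 in set B alone. Most other fits did not call Rarb, which passed in 4 of 18 alternatives. It passed in 0 of the 6 fits that lacked 1 of the libraries compared (edgeR FDR 0.0825 to 0.915). With only the 6 libraries compared and the set term its edgeR FDR was 0.237.

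The Rarb promoter is shown because it holds the element that RAR and RXR are known to bind, a direct repeat of half-sites spaced by 5 bases, and those of Dhrs3 and Cyp26b1 because these 2 genes had the smallest p. Sequences are the 250 bases before the RefSeq start site on GRCm38.p6, written 5′ to 3′ on the strand of the gene, with half-sites in capitals. Rarb is chr14:16575477-16575726 (minus strand), Dhrs3 chr4:144892577-144892826 (plus strand, the first of 3 start sites) and Cyp26b1 chr6:84593811-84594060 (minus strand).
Rarb: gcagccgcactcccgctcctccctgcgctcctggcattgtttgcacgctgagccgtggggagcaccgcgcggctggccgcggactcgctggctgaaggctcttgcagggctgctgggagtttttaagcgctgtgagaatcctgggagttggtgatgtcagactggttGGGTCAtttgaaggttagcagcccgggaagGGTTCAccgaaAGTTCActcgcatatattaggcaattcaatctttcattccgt
Dhrs3: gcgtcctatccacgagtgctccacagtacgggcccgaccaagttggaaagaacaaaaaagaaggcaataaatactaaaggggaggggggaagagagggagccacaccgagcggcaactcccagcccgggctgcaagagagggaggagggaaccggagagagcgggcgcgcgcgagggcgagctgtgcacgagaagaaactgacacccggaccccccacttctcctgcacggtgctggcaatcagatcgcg
Cyp26b1: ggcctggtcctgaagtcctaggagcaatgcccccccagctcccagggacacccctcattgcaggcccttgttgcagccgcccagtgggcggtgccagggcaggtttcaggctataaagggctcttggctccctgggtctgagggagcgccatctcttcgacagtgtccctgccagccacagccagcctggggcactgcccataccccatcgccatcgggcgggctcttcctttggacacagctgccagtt
The half-site searched was AGGTCA, or its variant AGTTCA, or the variant GGGTCA, or the variant GGTTCA, on both strands, in windows from 250 bases before to 50 bases after each start site; a half-site inside a repeat was also counted on its own. Rarb held 1 direct repeat spaced by 5, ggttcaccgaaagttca, whose first base lies 53 bases before the start site (at position -53, chr14:16575513-16575529), and 1 further GGGTCA at position -83. Such a repeat was found in 32 of all 32851 RefSeq promoter windows (0.0974%) and in 3 of the 14562 windows of genes tested (0.0206%), those of Rarb, Blvrb and Cfap45. Of the 8 windows of the 5 genes that passed and Rarb, that of Rarb was the only one with the repeat (12.5%), and 0 held it when half-sites starting with GG were not allowed. A single half-site was present in 2 of these 8 windows (25.0%), those of Rarb and Cd38, against 43.7% of all windows. The windows of Dhrs3, Cyp26b1, Fmo5 and Enpp1 held none of these letters, which says nothing of elements elsewhere in those genes.

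Among 30 known targets of retinoic acid receptors 21 were tested, and 3 rose in edgeR, Dhrs3, Cyp26b1 and Cd38, while 0 fell. Of all genes tested 0.0299% rose and 0% fell. DESeq2 also called Rarb. Log2 values lay above 0 for 16 of the 21, with a median of 0.39 beside 0.005 over all genes tested. Of all genes tested 50.7% lay above 0, the share to set beside the counts above 0 for this and the later lists. Without AM580 replicate 1 they lay above 0 for 17 of 21, with a median of 0.18. For 8 of the 21 the AM580 libraries were above the DMSO libraries of the same set in both sets, an order that 6.28% of all genes tested showed, and for 2 they were below, which 6.48% of all genes showed. Below the threshold the G protein-coupled receptor gene Gprc5a stood at 10.4, 17.1 and 10.3 CPM with DMSO and at 20.4, 27.2 and 24.3 CPM with AM580. Its groups did not overlap, as for 2.19% of all genes tested in this direction (log2 value 0.93 ± 0.28, edgeR FDR = 0.808). The ephrin receptor gene Epha2 and the homeobox gene Gbx2 had log2 values of 0.83 and 0.70, with overlapping groups. The 9 targets not tested, among them Stra8, Hoxb1, Cdx1, Lrat and Ucp1, had at most 3 reads in any of the 6 libraries.

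Of the genes that turn retinol and retinaldehyde into one another 10 of 13 were tested. Dhrs3 passed in edgeR, and DESeq2 called Dhrs3 and Adh1. Adh1 (chr3:138260991-138290698), the alcohol dehydrogenase that oxidises retinol, was the closest below the threshold. It read 33.7, 58.6 and 54.4 CPM with DMSO and 95, 89.4 and 93.3 CPM with AM580. The AM580 libraries lay close together and above all DMSO libraries (log2 value 0.95 ± 0.16, edgeR FDR = 0.0936), and Adh1 passed in edgeR when every gene of at least 1 read was tested. The other 8 had log2 values between -0.24 for Rdh14 and 0.59 for Rdh12. Of the retinaldehyde dehydrogenases that make retinoic acid, Aldh1a1, Aldh1a2 and Aldh1a3 were tested and had values of -0.01, -0.12 and -0.06, and none passed.

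For storage, binding and uptake of retinoids 11 of 14 genes were tested and 0 passed. The largest values with separated groups were 1.08 ± 0.32 for Rbp2, a cellular retinol-binding protein, and 0.75 ± 0.20 for Lipe, hormone-sensitive lipase, both with an edgeR FDR of 0.808. Rbp2 stood at 1.14, 2.08 and 1.26 CPM with DMSO and at 3.87, 2.93 and 2.64 CPM with AM580. Members of this list were above 0 in 9 of 11 cases, and in 6 of 11 without AM580 replicate 1.

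Of the RAR and RXR genes 5 of 6 were tested and 0 passed in edgeR, while DESeq2 called Rarb. All 5 had log2 values above 0, and 2 of the 5 did without AM580 replicate 1. Per length, in CPM per kilobase of exon (RPKM), the DMSO level was highest for Rxrb at 25.8 ± 3.91, followed by Rxra at 14.9 ± 1.61, Rarg at 7.44 ± 2.14, Rara at 4.29 ± 1.26 and Rarb at 0.0631 ± 0.0214 (SD, n = 3). The RPKM levels with AM580 were 29.6 ± 6.51, 15.2 ± 2.14, 8.93 ± 6.04, 4.91 ± 2.81 and 0.373 ± 0.110 in the same order. Neighbours in this order differed by more than the sum of their SDs with DMSO, except Rarg and Rara, while with AM580 Rarg and Rxra as well as Rarg and Rara lay within it. Rara, which encodes the receptor that AM580 binds, read 25.1, 15.7 and 15.5 CPM with DMSO and 35.6, 14.6 and 14.0 CPM with AM580. Its libraries followed the library set rather than the treatment, and its log2 value was 0.09 ± 0.17 with an interval that includes 0 (edgeR FDR = 0.894). Rxrg had at most 5 reads and was not tested.

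Among 10 surface enzymes acting on nucleotides and NAD that were tested, Enpp1 and Cd38 rose, as did 0.0299% of all genes tested. The other 8 had log2 values between -0.19 for Enpp5 and 0.21 for Entpd1. The median of all 10 was 0.05. The CD38 homologue Bst1 had at most 2 reads.

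**Figure D2:**
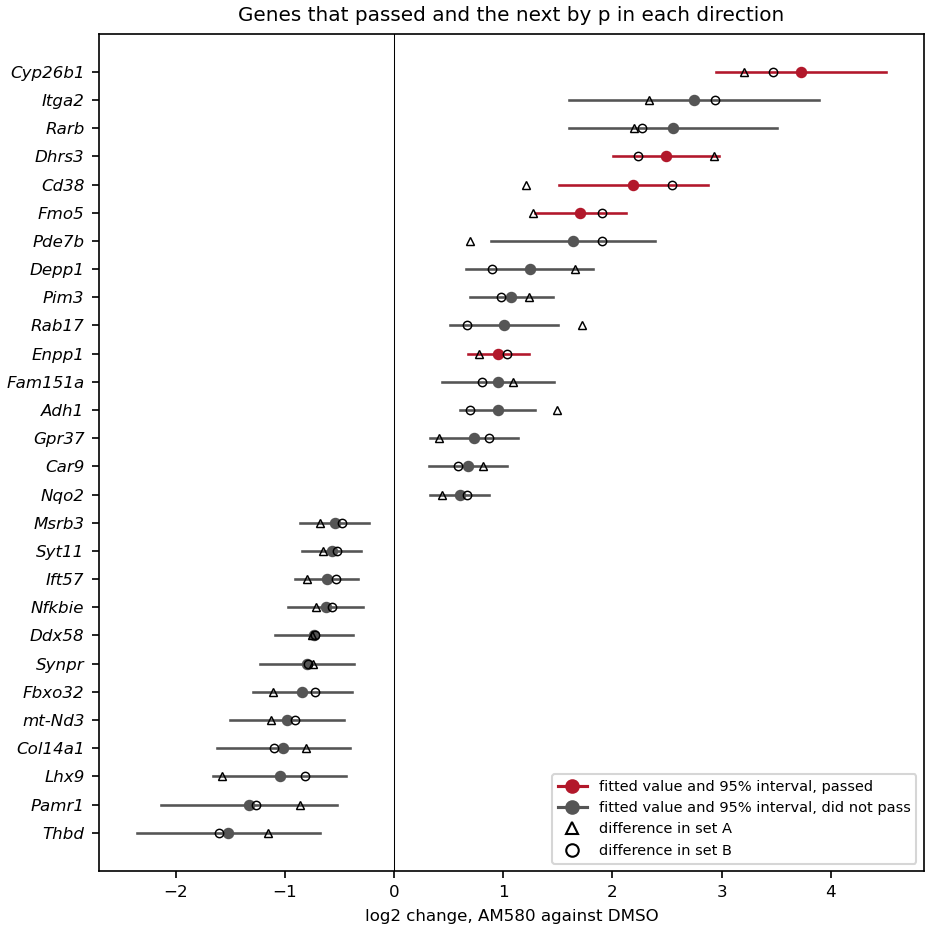
Fitted log2 change with its 95% interval for the genes that passed (red) and the genes next in each direction by p (grey), with the difference in set A (triangles) and set B (circles) in log2(CPM + 0.1). Every gene drawn has both differences on the same side of 0, which the choice of genes required.

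Beyond the retinoid genes, the genes next by p on the higher side after the 5 that passed were Pim3, Adh1, Rarb, Itga2, Nqo2, Pde7b, Depp1, Rab17, Car9, Fam151a and Gpr37. They were chosen to lie above DMSO in both library sets, which is therefore no finding, and none passed in edgeR. DESeq2 called Pim3, Adh1, Rarb, Itga2, Nqo2, Pde7b, Depp1 and Rab17, and edgeR with every gene of at least 1 read tested called Pim3, Adh1, Rarb, Pde7b and Depp1. The kinase gene Pim3 read 142, 156 and 121 CPM with DMSO and 333, 293 and 253 CPM with AM580, without overlap. Its log2 value was 1.08 ± 0.18 (edgeR FDR = 0.0844), the smallest FDR of the genes that did not pass. Itga2, the collagen-binding integrin α2 subunit, read 2.71, 0.876 and 1.89 CPM with DMSO and 14.1, 10.8 and 10.4 CPM with AM580. Its 6.72-fold difference was second in size only to that of Cyp26b1 among the genes named for this comparison, but its error was large (log2 value 2.75 ± 0.53, edgeR FDR = 0.282). Car9, a carbonic anhydrase gene of the low-oxygen list, read 141, 27.6 and 26.3 CPM with DMSO and 248, 43.9 and 37.3 CPM with AM580. For Car9 the replicate 1 libraries exceeded the others in both groups, and AM580 exceeded DMSO within each set (log2 value 0.68 ± 0.17, edgeR FDR = 0.808).

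On the lower side the same rule gave Ift57, Syt11, Ddx58, mt-Nd3, Fbxo32, Synpr, Thbd, Nfkbie, Msrb3, Lhx9, Col14a1 and Pamr1, with log2 values between -0.54 for Msrb3 and -1.52 for Thbd, and none passed in edgeR. DESeq2 called Ift57, Syt11 and Ddx58, and the other of its 4 lower genes has no symbol. A lower gene without a symbol was also the 1 called by edgeR with every gene of at least 1 read tested, and by DESeq2 without the set term. Ddx58, which encodes the RNA sensor RIG-I, read 26.4, 26.1 and 25.5 CPM with DMSO and 15.6, 16.7 and 14.6 CPM with AM580. Its groups were apart, as for 2.22% of all genes tested in this direction (log2 value -0.73 ± 0.17, edgeR FDR = 0.647), and the libraries of the other treatments lay between 15.7 and 24.6 CPM. The thrombomodulin gene Thbd read 4.18, 2.69 and 3.29 CPM with DMSO and 1.82, 0.772 and 1.07 CPM with AM580 (edgeR FDR = 0.808). Fbxo32, a muscle ubiquitin ligase subunit, read 21.9, 19.4 and 21.1 CPM with DMSO and 10.1, 12.1 and 12.2 CPM with AM580, also without overlap (log2 value -0.84 ± 0.21, edgeR FDR = 0.808).

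Ddx58 is 1 of 15 interferon-stimulated genes that were listed. All 15 had log2 values below 0, with a median of -0.29, and 0 passed in edgeR, while DESeq2 called Ddx58. For 6 of them the AM580 libraries lay below the DMSO libraries of the same set in both sets (6.48% of all genes tested did), and 4 had an unadjusted p under 0.05 in this direction (2.12% of all genes). Without AM580 replicate 1 all 15 also lay below 0, with a median of -0.51, and without the set term 2 of the 15 lay above 0. Ifih1, the RNA sensor MDA5, read 8.67, 8.39 and 7.97 CPM with DMSO and 3.84, 5.49 and 5.91 CPM with AM580 (log2 value -0.73 ± 0.21, edgeR FDR = 0.808). The summed level of the 15 genes overlapped between the groups: it was 264, 299 and 224 CPM with DMSO and 309, 194 and 181 CPM with AM580, the highest sum being that of AM580 replicate 1.

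Of 26 acinar enzyme genes tested 0 passed, 18 had values above 0 and 8 below, and without AM580 replicate 1 the split was 7 above and 19 below. The summed level of the 31 genes listed was 7794, 12646 and 10340 CPM with DMSO and 14549, 9802 and 9217 CPM with AM580, so the order of the groups in set A was the opposite of that in set B. The lipase-related gene Pnliprp1 read 124, 200 and 149 CPM with DMSO and 370, 183 and 184 CPM with AM580, where AM580 replicate 1 was far above the other 5 libraries. Reads of the near-identical trypsinogen genes, such as Try4 and Try5, may have been divided between them by the counting, and their values are uncertain. Of 11 acinar transcription factor genes 0 passed and 8 had values above 0, with and without AM580 replicate 1. For 4 of the 11 the AM580 libraries lay above the DMSO libraries of the same set in both sets, and for 0 below. Of all genes tested 6.28% and 6.48% did so. Gata4 read 165, 305 and 285 CPM with DMSO and 210, 391 and 333 CPM with AM580, so AM580 was above DMSO within each set although the groups overlapped (log2 value 0.31 ± 0.14, edgeR FDR = 0.808).

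Ductal and progenitor markers were above 0 for 13 of 19 genes tested, with a median of 0.19 (0.10 without AM580 replicate 1), and 0 passed. In both sets 6 of the 19 lay above DMSO and 0 below, beside 6.28% and 6.48% of all genes tested. The mucin gene Muc1 read 0.760, 0.634 and 0.729 CPM with DMSO and 2.41, 1.63 and 1.01 CPM with AM580, and the carbonic anhydrase gene Car2 1.67, 1.6 and 2.51 CPM against 3.17, 3.69 and 4.13 CPM. Neither overlapped between the groups, and both had an edgeR FDR of 0.808, while the duct keratin gene Krt19 had overlapping groups and a log2 value of 0.50 ± 0.58. Of 11 endocrine genes tested 0 passed, and 8 had values below 0, with a median of -0.35. The summed level of the 21 endocrine genes listed was 464, 520 and 430 CPM with DMSO and 591, 510 and 558 CPM with AM580. In both sets 5 of the 11 lay below DMSO, Ppy, Neurod1, Pcsk1, Mafa and Isl1, all at a mean under 5 CPM, and 2 lay above, Chga and Pcsk2, beside 6.48% of all genes tested below and 6.28% above.

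**Figure D3:**
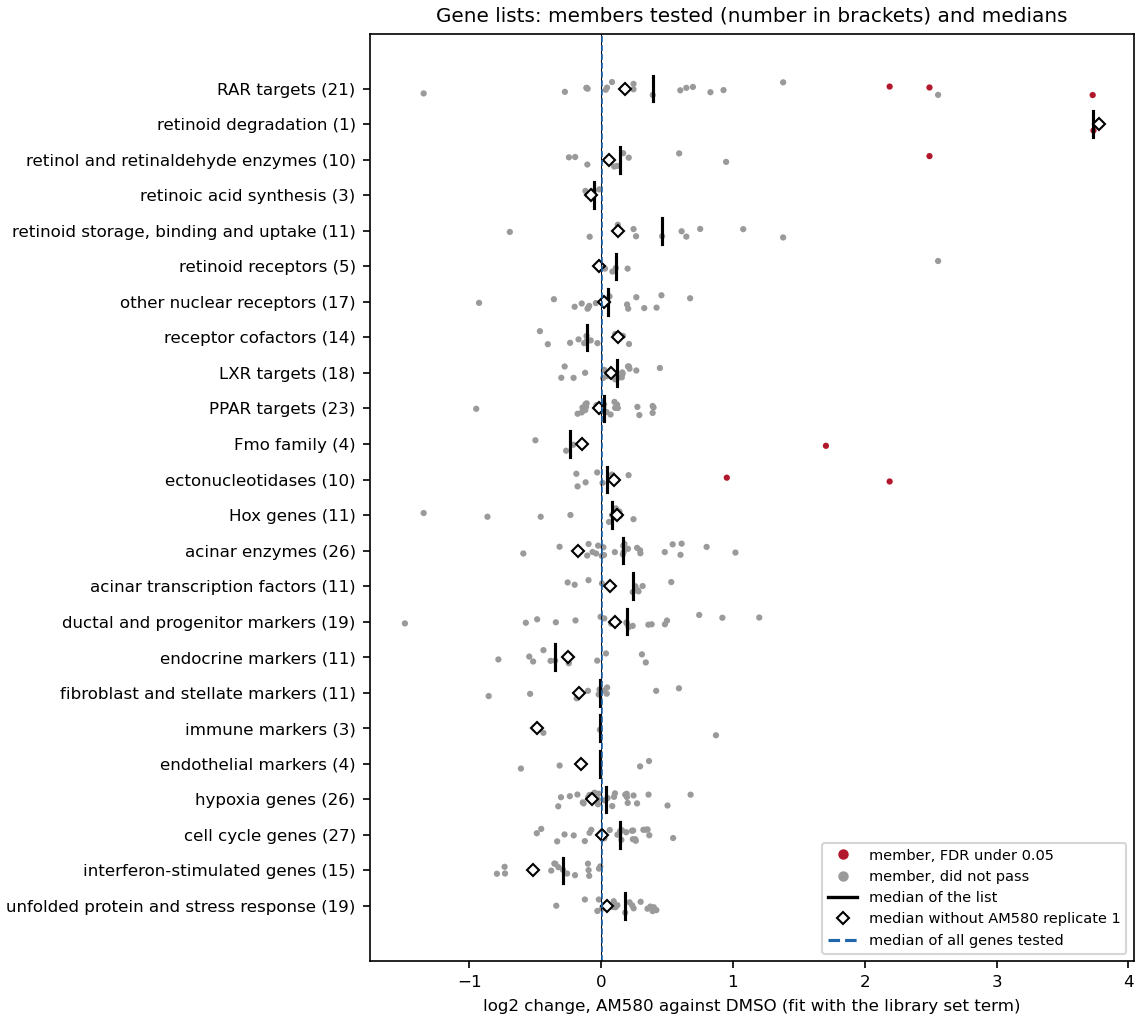
Log2 change with AM580 for the members tested of each of the 24 gene lists (points; red, FDR under 0.05), with the list median (bar), its median without AM580 replicate 1 (diamond) and the median of all genes tested (dashed line at 0.005). Genes that passed in edgeR appear among the RAR targets, the retinoid degradation genes, the retinol and retinaldehyde enzymes, the Fmo family and the ectonucleotidases, and in no other list.

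AM580 replicate 1 and DMSO replicate 1 differed from each other far more than the libraries of set B did. Over the 13741 genes with a group mean of at least 1 CPM, the SD of the difference in log2(CPM + 0.1) between AM580 and DMSO was 0.780 in set A and 0.265 in set B, where means of 2 libraries were taken. The 5 genes that passed and Rarb lay above 0 in both sets: the differences in set A and set B were 3.21 and 3.47 for Cyp26b1, 2.2 and 2.27 for Rarb, 1.28 and 1.91 for Fmo5, 1.20 and 2.55 for Cd38, and 0.78 and 1.03 for Enpp1. The 5 were called by a test on these same libraries, which favours such agreement, so it is no separate finding for them. Over all genes tested, AM580 was above DMSO in both sets, without overlap within a set, for 1051 genes (6.28%) and below for 1084 (6.48%).

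**Figure D4:**
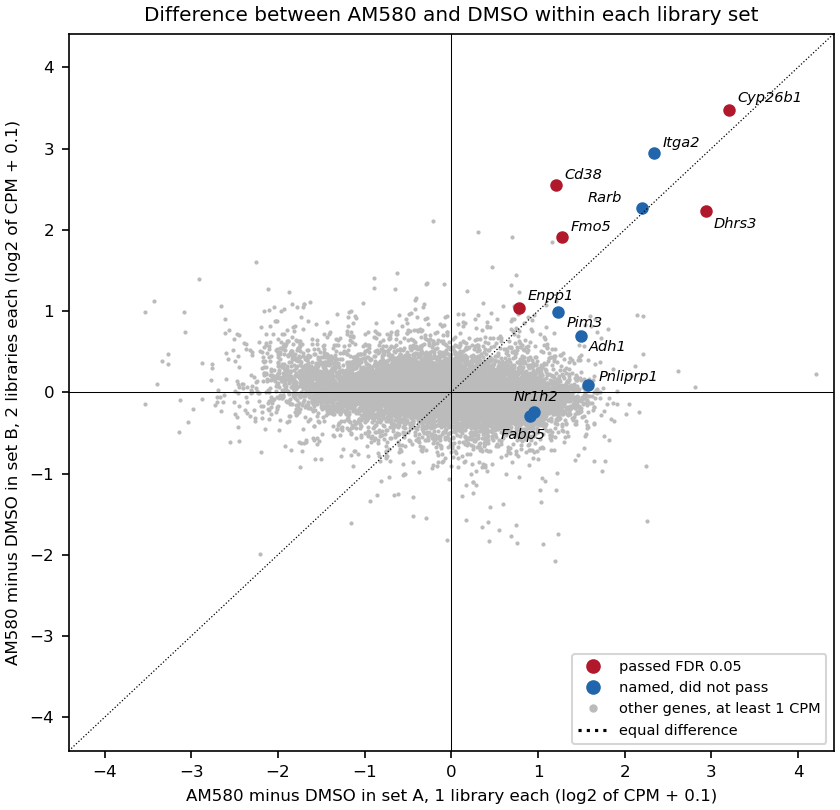
Difference between AM580 and DMSO in log2(CPM + 0.1) in set A (x axis, 1 library each) and in set B (y axis, means of 2 libraries each) for 13741 genes with a group mean of at least 1 CPM, with named genes in colour. The 5 genes that passed lie in the upper right quadrant, apart from the cloud except for Enpp1 near its edge, and the cloud is wider along the x axis (SD 0.780) than along the y axis (SD 0.265). The test that called these 5 genes used the same libraries and favours this position.

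AM580 was then compared with CD3254, which acts on the partner receptor, without DMSO as the reference. The DMSO libraries stayed in the fit of all 15 libraries, which gave the spread and the set term. In edgeR 1 gene was higher with AM580 (0.00598%), Dhrs3, and 1 was lower (0.00598%), Angptl4, while 641 genes (3.83%) had an unadjusted p under 0.05, 422 of them higher (2.52%) and 219 lower (1.31%), and DESeq2 passed 14. Dhrs3 was 4.02-fold higher with AM580 than with CD3254, whose libraries read 10.8, 3.57 and 3.31 CPM (log2 difference 2.01 ± 0.22, edgeR FDR = 0.00511). Angptl4, which encodes a secreted inhibitor of lipoprotein lipase and is a known target of PPAR-RXR pairs, ranged from 1.17 to 12.2 CPM with AM580 and from 18.5 to 58.5 CPM with CD3254. The groups did not overlap, and Angptl4 was 7.51-fold lower with AM580 (log2 difference -2.91 ± 0.34, edgeR FDR = 0.00607). Angptl4 did not pass without AM580 replicate 3, with every gene of at least 1 read tested, in the 6 libraries compared alone or with the replicate block in those 6, and without the set term edgeR passed 0 genes (153 at an unadjusted p under 0.05).

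Rarb read 0.663, 0.246 and 0.260 CPM with CD3254, below all AM580 libraries, with a log2 difference of 2.32 ± 0.44 (edgeR FDR = 0.424). Rarb was called with DESeq2, and by edgeR with every gene of at least 1 read tested, in set B alone and without CD3254 replicate 1. Cyp26b1 was less separated, at 4.67, 1.43 and 1.13 CPM with CD3254, where the range overlapped that of AM580 (log2 difference 0.74 with an interval of 0.14 to 1.34, edgeR FDR = 0.717). For Fmo5, Cd38 and Enpp1 the log2 differences were 0.49, 0.84 and 0.60, and none passed in edgeR, while DESeq2 called Enpp1. The 2 ligands share the DMSO libraries as their control, so each is also given against it: for Cyp26b1 the log2 change was 3.73 with AM580 and 2.99 with CD3254 (edgeR FDR = 0.0105), for Dhrs3 2.49 and 0.48 (FDR = 1.00), for Fmo5 1.71 and 1.21 (FDR = 0.0718), for Cd38 2.19 and 1.35 (FDR = 0.994), for Enpp1 0.95 and 0.35 (FDR = 1.00) and for Rarb 2.56 and 0.23 (FDR = 1.00). Cyp26b1 was thus the 1 gene of these 6 that passed with CD3254 as well.

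Between 9-cis retinoic acid and AM580 edgeR passed 0 genes in either direction (0%). At an unadjusted p under 0.05 there were 241 genes (1.44%), 150 of them higher with 9-cis retinoic acid (0.896%) and 91 lower (0.544%), and DESeq2 also passed 0. The largest difference among the 6 genes was that of Cyp26b1, which read 16.8, 3.58 and 7.35 CPM with 9-cis retinoic acid. This was 2.32-fold the AM580 level (log2 difference 1.21 with an interval of 0.62 to 1.80, edgeR FDR = 1.00), and the ranges overlapped. The intervals of the log2 difference were -0.15 to 0.75 for Dhrs3, -0.33 to 1.35 for Rarb, -0.26 to 0.54 for Fmo5, -0.93 to 0.33 for Cd38 and -0.18 to 0.38 for Enpp1. All 5 include 0, and those of Rarb and Cd38 are wide, so a difference of that size was not detectable for them. Replicate 3 of 9-cis retinoic acid was the shallowest library of the series, with 14600962 gene reads.

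With AM580 and CD3254 together the mean level of each of the 6 genes was above that with AM580 alone. Cyp26b1 read 53.3, 126.6 and 35.5 CPM and its log2 change against DMSO was 7.98 ± 0.38, beside 3.73 with AM580 alone. The joint treatment and AM580 share the DMSO libraries, and the values beside each other were 3.14 and 2.49 for Dhrs3, 3.21 and 2.56 for Rarb, 2.80 and 1.71 for Fmo5, 2.52 and 2.19 for Cd38, and 1.47 and 0.95 for Enpp1. Rarb passed in that comparison (edgeR FDR = 0.00679), with libraries of 3.71, 1.97 and 3.62 CPM. The difference between the joint treatment and AM580 was not tested here.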

How the data were processed

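Per the labels' protocols RNA was isolated with TRIzol reagent from monolayers grown in medium with 10% serum at 5% CO2. The submitters' processing notes name the mm10 build, HTSeq, SAMtools 1.18, HISAT2 2.2.1 and FastQC. The authors deposited raw read counts per gene, with no normalization, for all 15 libraries in 1 table. Neither the kit nor the strand of counting nor the annotation version is named in the labels, and genes that overlap, also on opposite strands, may share reads. Rows that name no gene were left out. They held 18.1% to 28.5% of a library, except that 9-cis retinoic acid replicate 3 had 63.0%.

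Gene names and coordinates are from GENCODE M21 on GRCm38, the assembly of mm10, and 42548 of 43432 identifiers had a symbol. Counts were tested with edgeR 4.0.16 (limma 3.58.1, R 4.3.3): filterByExpr on the groups, TMM factors, robust quasi-likelihood fits of all 15 libraries with group and library set as terms (9 residual degrees of freedom), two-sided tests, Benjamini-Hochberg adjustment over all genes of a comparison and a threshold of 0.05. Libraries were put in set A or B by the sign of principal component 1 computed on log2 CPM (prior count 2) from the same counts, so the p-values rest on a term read from the data they test. The standard error was derived from the F statistic, and CPM used TMM-scaled library totals. RPKM divides CPM by the summed exon length of the gene.

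Counts from 2 to 735 reads a library stand behind the values of Cyp26b1, Rarb and Fmo5, and the median biological coefficient of variation was 0.193. The deviations of AM580 and DMSO libraries of the same number from their group means correlated across genes at r = 0.571, 0.278 and 0.505, and libraries 2 and 3 crossed at 0.480 and 0.232. Within set B, the difference of replicate 2 minus replicate 3 correlated between AM580 and DMSO at r = 0.0695. All 3 same-number values were over 0.1, so the fit with the replicate block is printed where it changed a call. Nothing in the labels states what a number shares. The set A library was replicate 2 in the joint treatment and replicate 1 in every other group.

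Named genes were Cyp26b1, Dhrs3, Fmo5 and Rarb, every gene past the threshold, the 12 genes per direction with the smallest p that did not pass, whose mean was 1 CPM or more and whose AM580 level was beyond DMSO in both sets, leaving out predicted models, the tested members of 8 retinoid and enzyme lists, and from each other list the 2 members with the smallest p and the 2 most highly expressed. Krt19, Rbpjl, Aldh1a1 as well as the 5 endocrine genes below DMSO, and Angptl4, were named after their values were seen. Some genes that the rule gives are not reported here. The comparisons, the 24 gene lists (382 distinct genes, 306 tested) and the members were chosen with earlier results of these data known. Alternatives were other scalings, filters and tools (DESeq2 1.42.0, limma voom), other sets of libraries, the replicate block and each replicate left out. Tests were tried on simulated counts first.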

Additional observations from a re-analysis of the deposited data

Results flagged for a closer look

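The response to AM580 differed between the library sets for 459 of 16736 genes at an edgeR FDR under 0.05, by a term for AM580 within each set that was added after the data were seen (5 residual degrees of freedom, smallest FDR 0.0464, 4820 genes at an unadjusted p under 0.05). The same term for CD3254, for the joint treatment and for 9-cis retinoic acid gave 0 genes each, with 205, 505 and 295 at an unadjusted p under 0.05. The AM580 and DMSO values of set A are 1 library each, so the spread behind this term was measured in set B alone. AM580 replicate 1 lay farthest out on the first component at -90.0, and the part of that library in these values was not tested. A response that differs between the sets and a deviation of that single library cannot be told apart here.

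Among the genes named here 3 were of this kind, each higher with AM580 in set A, with a log2 change in set B minus that in set A well below 0. For the lipase-related gene Pnliprp1 it was -1.50, with differences of 1.58 in set A and 0.09 in set B. For Fabp5, a fatty acid-binding protein that also carries retinoic acid, it was -1.21, with 0.91 and -0.30. For Nr1h2, which encodes the liver X receptor LXRβ, it was -1.19, with 0.96 and -0.24. None of the 5 genes that rose with AM580, nor Rarb, was among the 459.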

How the results depend on the processing

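The number of genes that passed between AM580 and DMSO was 5. It was 0 without the library set term, 11 with every gene of at least 1 read tested, 17 with DESeq2 and 10 with DESeq2 without the set term, 3 in set B alone, 3 with the replicate block beside the set term, 0 with the 6 libraries compared and the set term, and 0 with the replicate block in place of the set term in those 6 libraries. It was between 3 and 5 when 1 library of the pair was left out. Between AM580 and CD3254 it was 2 and became 0 without the set term, 14 with DESeq2, 1 with DESeq2 without the set term, 1 with the 6 libraries compared, 0 with the replicate block in those 6, between 1 and 3 when 1 library was left out, and 8 when replicate 1 of AM580 was left out together with the shallow replicate 3 of 9-cis retinoic acid (7 against DMSO). Between 9-cis retinoic acid and AM580 it was 0 in each of these fits. The cause of these changes was not tested, beyond the smaller number of libraries where some were left out.

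Dhrs3, Cyp26b1, Fmo5, Enpp1, Cd38 and Rarb kept a log2 value above 0 in all 18 alternative fits. Among them the block beside the set term changed no call against DMSO but those of Enpp1 and Cd38. None of these genes passed against DMSO in the 6 libraries compared, with the block in place of the set term or with the set term. The share of promoter windows of these genes with the direct repeat fell from 12.5% to 0% with the 2 stricter half-sites. Of 24 list medians 16 were above 0, 18 without the set term and 13 without AM580 replicate 1. With 3 libraries a group the median 95% interval spans a 1.39-fold change either way, and genes of few reads, such as Rarb, have wider ones.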

Other observations

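Lists of targets of other partners of RXR held 0 genes that edgeR or DESeq2 called with AM580. Of all 16736 genes tested edgeR called 0.0299% higher and 0% lower, and DESeq2 called 17 genes. At such shares 0 calls in lists this short say nothing particular about these targets. Of 18 targets of the liver X receptors 14 had values above 0, with a median of 0.12, and 12 with a median of 0.08 without AM580 replicate 1. Of 23 targets of the peroxisome proliferator-activated receptors 13 were above 0 and 10 below, with a median of 0.02, and without AM580 replicate 1 10 were above and 13 below, with a median of -0.02. The receptor cofactors, corepressors and coactivators that exchange on ligand binding, were below 0 for 10 of 14 genes, and above 0 for 12 of 14 without AM580 replicate 1. Of 39 Hox genes 11 were tested, 9 of the Hoxa cluster beside Hoxb13 and Hoxd4, and 0 passed.

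Of 27 cell cycle genes 19 were above 0, with a median of 0.14, and 14 with a median of 0.01 without AM580 replicate 1, and 0 passed. Of 19 genes of the unfolded protein and amino acid stress response 15 were above 0, with a median of 0.18, and 11 with a median of 0.04 without AM580 replicate 1, and 0 passed. Trib3, a pseudokinase gene induced by stress, read 118, 176 and 162 CPM with DMSO and 138, 236 and 223 CPM with AM580 (log2 value 0.37 ± 0.13, edgeR FDR = 0.808). Mitochondrially encoded mRNAs summed to 17563, 23689 and 29201 CPM with DMSO and to 14484, 25185 and 28728 CPM with AM580, with the replicate 1 library lowest in each group. Besides Rarb, Blvrb was a gene tested whose promoter window held a direct repeat spaced by 5, agttcaaagccagttca at position -19, and its log2 value with AM580 was 0.19 ± 0.28 (edgeR FDR = 0.861).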
